A study of Homo sapiens with 4 samples.

Results

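HL-60 peaks in genes that carried no HL60/MX2 peak made up 3796 of the 8070 m7G peaks listed for HL-60 (47.0%), and they lay in 2899 of 20162 protein-coding genes (14.4%). For both lists the gene of a peak was the protein-coding one with the largest overlap between its exons and the peak, on the listed strand, and an HL-60 peak was a member when no HL60/MX2 peak fell to its gene. The members were thus chosen by the peak calls themselves, and the absence of HL60/MX2 peaks from their genes defines them and is no finding. HL-60 is a human acute myeloid leukaemia cell line, labelled WT, and HL60/MX2 is its drug-resistant counterpart, known as a line selected with the topoisomerase inhibitor mitoxantrone. Both lines were grown without a further treatment named in the labels, and the series holds an enriched (IP) and an input library of each. Peaks were listed for the enriched libraries, 1 library per line, so no value below has a replicate, no test between the lines was possible, and intervals are exact binomial 95% intervals that cover counting error only.

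m7G is guanosine with a methyl group on its base. It is best known as the cap at the 5′ end of mRNA and as a mark of transfer RNA, where METTL1 writes it together with its partner WDR4, and it has also been mapped inside mRNA. The libraries were made by decapping and fragmenting mRNA and pulling down fragments with an m7G antibody, so that a peak marks a stretch of exon enriched in the pull-down and not a single base.

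Another 2424 genes (12%) had peaks in both lists, 3327 (16.5%) had peaks in HL60/MX2 only, and 11512 had none. Of the 5323 genes with a peak in HL-60, 54.5% were HL60-only. None of the 3796 members overlapped an HL60/MX2 peak on either strand, and none had one within 100 bp on its own strand. The median distance from a member to the nearest HL60/MX2 peak on its strand was 223 kb. These same-strand values follow largely from the choice of members, whose genes hold no HL60/MX2 peak. No such rule bears on genes peaked in both lists, where 477 of 3943 HL-60 peaks (12.1%, 11.1 to 13.2%) overlapped an HL60/MX2 peak. The HL-60 list held 8070 peaks whose running numbers reached 942541 and the HL60/MX2 list 8122 whose numbers reached 780326, so a gene counted as unpeaked is one without a peak in the deposited selection. Neighbouring genes add some doubt, since 92 members covered exons of more than 1 gene and the exons of 10 HL60-only genes were overlapped by an HL60/MX2 peak given to another gene.

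The 8 stretches below show what a member peak looks like, 4 of them from the genes with the highest scores and 4 from named gene families. All lie in coding exons in hg19 and are written as transcript-sense DNA. The highest-scoring member was in ANTXRL, an anthrax toxin receptor-like gene, at chr10:47669067-47669147 on the plus strand, where it covered exon 8 of 17. The peak of GAGE12G, a cancer-testis antigen gene, filled exon 3 of 5 at chrX:49336707-49336827 (plus). DPYSL4, a dihydropyrimidinase-like protein of neurons, had its peak on exon 2 of 14 at chr10:134004251-134004339 (plus), near the start codon, and the golgin-like gene GOLGA6C on exon 3 of 18 at chr15:75554753-75554833 (plus). KRT1, a keratin of the epidermis, was covered on exon 6 of 9 at chr12:53070843-53070968 (minus). The olfactory receptor OR1J2 was covered within its single exon at chr9:125273284-125273532 (plus). The cilium genes TTC21A and TCTN2 were covered on exon 12 of 29 at chr3:39167752-39167881 (plus) and on exon 4 of 18 at chr12:124158162-124158357 (plus). Capitals mark the 2 motifs that were searched, which the study had drawn from its peaks of these same samples. Their presence is therefore no independent evidence, and their rate in exon sequence outside peaks was not measured. The first was CTGGN or its variant CTGTN, and the second was GGAAN, in each case with A or G at the position written N.
ANTXRL: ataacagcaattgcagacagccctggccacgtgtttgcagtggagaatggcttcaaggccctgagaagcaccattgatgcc
GAGE12G: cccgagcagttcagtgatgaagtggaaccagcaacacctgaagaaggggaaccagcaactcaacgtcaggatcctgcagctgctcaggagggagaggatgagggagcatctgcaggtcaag
DPYSL4: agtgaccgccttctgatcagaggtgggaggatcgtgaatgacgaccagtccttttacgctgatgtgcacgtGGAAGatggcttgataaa
GOLGA6C: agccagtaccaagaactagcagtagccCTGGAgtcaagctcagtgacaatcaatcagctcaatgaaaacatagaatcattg
KRT1: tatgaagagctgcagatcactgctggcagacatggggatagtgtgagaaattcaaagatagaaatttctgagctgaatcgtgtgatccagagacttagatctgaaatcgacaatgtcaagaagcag
OR1J2: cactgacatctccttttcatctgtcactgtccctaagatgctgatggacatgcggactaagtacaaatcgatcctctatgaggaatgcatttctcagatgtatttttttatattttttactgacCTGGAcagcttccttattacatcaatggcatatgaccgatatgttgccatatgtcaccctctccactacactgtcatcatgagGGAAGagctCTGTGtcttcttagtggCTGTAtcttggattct
TTC21A: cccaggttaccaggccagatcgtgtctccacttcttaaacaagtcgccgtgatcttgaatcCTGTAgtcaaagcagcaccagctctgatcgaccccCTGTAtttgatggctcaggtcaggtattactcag
TCTN2: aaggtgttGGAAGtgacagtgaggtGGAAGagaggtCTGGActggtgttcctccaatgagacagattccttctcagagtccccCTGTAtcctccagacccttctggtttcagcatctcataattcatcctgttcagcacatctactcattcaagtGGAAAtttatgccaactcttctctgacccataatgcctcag

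ANTXRL, GAGE12G and KRT1 held neither motif, and TCTN2 held 2 sites of the first and 3 of the second. Over all members the first motif was in 56.9% and the second in 43%, on the transcript strand only, while 1145 members held neither and 224 held the 2 motifs overlapping, as in the run CTGGAAN. The shares followed peak length: among members of at least 100 and under 200 bp 62.3% held the first motif, against 61.6% of all assigned HL-60 peaks and 62.7% of all assigned HL60/MX2 peaks of that length. For the second motif these shares were 46.7%, 47.7% and 45.8%. In each of the 3 length classes the intervals of members and of HL-60 peaks in shared genes overlapped for both motifs.

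HL60-only genes were mid-sized. Their median exon length, over the merged exons of all transcripts, was 5173 bp, against 7485.5 bp in genes peaked in both lists, 5258 bp in HL60/MX2-only genes and 3530 bp in genes with no peak. They had a median of 11 merged exons, against 18 in genes of both lists, and 112 of them (3.86%) had a single exon, against 17 of the 2424 genes of both lists. The share of genes that were HL60-only rose from 7.64% in the shortest exon-length decile to 18.8% in the eighth and stood at 16.6% in the longest, where 33.6% of genes had peaks in both lists. Of the genes with an HL-60 peak, 85.1% (79.0 to 89.9%) were HL60-only in the shortest decile and 33.0% (30.1 to 36.0%) in the longest. Against HL60/MX2-only genes there was no such slope, since the HL60-only share of genes peaked in 1 list stayed between 44.7% and 49.4% in all 10 deciles.

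Base composition did separate the genes of the 2 lists. The HL60-only share fell from 19.9% (18.2 to 21.7%) of genes in the decile of lowest exon GC content to 4.57% (3.70 to 5.57%) in the highest. HL60/MX2-only genes kept a share of 15.9% in the lowest and 13.3% in the highest decile. Among genes peaked in 1 list, 55.6% (51.9 to 59.3%) were HL60-only in the lowest GC decile and 25.6% (21.1 to 30.4%) in the highest. The median exon GC content was 45.3% in HL60-only, 44.1% in genes of both lists, 48.4% in HL60/MX2-only and 51.5% in unpeaked genes. The share of genes in both lists fell from 18.7% in the lowest to 1.84% in the highest GC decile. Low GC content was therefore not particular to HL60-only genes. Median exon length also fell, from 6199.5 bp in the lowest to 2783 bp in the highest GC decile, and its part was not tested. Member peaks averaged 46.5% GC (SD 11.0, n = 3796 peaks), HL60/MX2 peaks of HL60/MX2-only genes 51.3% (SD 13.1, n = 4100 peaks) and HL-60 peaks of genes in both lists 45.6% (SD 10.2, n = 3943 peaks). Since each line had 1 library, a difference in base composition between libraries and one between cell lines cannot be told apart.

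**Figure D1:**
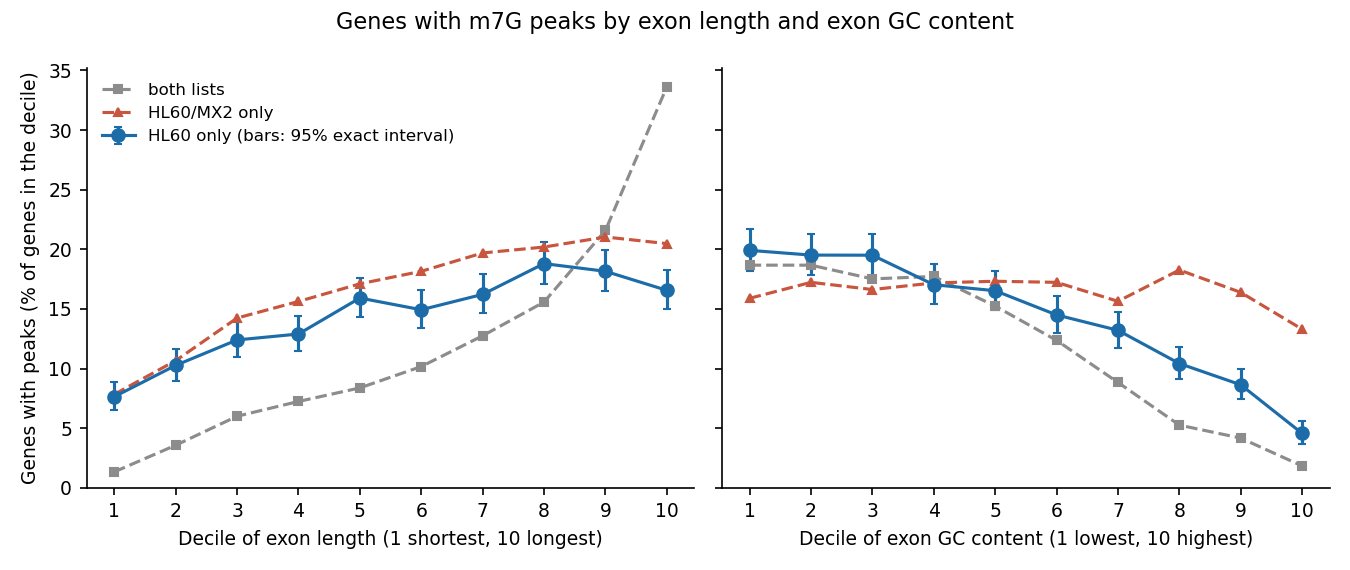
Share of protein-coding genes (y axis, percent of the genes in a decile) with m7G peaks in HL-60 only, in both lists or in HL60/MX2 only, by decile of exon length (left) and of exon GC content (right); bars are exact binomial 95% intervals for HL60-only genes. The HL60-only share climbs with length to 18.8% in the eighth decile, and with GC content it falls from 19.9% to 4.57% while the HL60/MX2-only share runs from 15.9% to 13.3%. The share of genes in both lists falls with GC content from 18.7% to 1.84%.

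Most HL60-only genes rested on 1 peak. A single peak was found in 2222 of them (76.6%), 517 had 2, 115 had 3 and 45 had at least 4, with a maximum of 6. The mean was 1.31 peaks per gene, against 1.63 HL-60 peaks per gene peaked in both lists and 1.23 peaks per HL60/MX2-only gene. The 677 genes with several peaks gave 897 neighbouring pairs with a median gap of 14.1 kb along the genome, and 114 pairs (12.7%) lay in the same exon. Several peaks of a gene were therefore mostly on different exons.

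The genes with the most peaks were NBPF8 and ADAMTS20 with 6 each. ADAMTS20, a secreted metalloprotease of the extracellular matrix, had 5 peaks in coding exons, with scores of 96.8 to 310.4, and the highest one, 737.86, at its stop codon. In NBPF8, a member of a family of near-identical copies on chromosome 1, the scores ran from 93.15 to 829.38, and 4 of the 6 peaks had exact copies elsewhere that lay inside HL60/MX2 peaks, so its peaks cannot be set apart from those of its relatives. The other 10 genes had 5 peaks each. ANO3, a membrane protein of the anoctamin family, had its highest peak in the 3′UTR (842.8) and the other 4 in coding exons (115.56 to 275.56). PLXNA4, a semaphorin receptor, had 4 of 5 peaks in the 3′UTR, with scores of 51.35 to 758.56, whereas ROS1, a receptor tyrosine kinase, PTPRR, a tyrosine phosphatase, and RYR2, the cardiac ryanodine receptor, had all 5 in coding sequence. Their highest scores were 511.48 in ROS1, 483.68 in PTPRR and 255.4 in RYR2. The kinase, phosphatase and calcium channel genes therefore carried peaks spread over coding exons, and PLXNA4 a cluster near its 3′ end. The zinc finger gene ZNF827 and the bicarbonate transporter SLC4A7 each had 2 peaks in the 3′UTR and 3 in the CDS, with highest scores of 707.1 and 520.84. DNAI3, a dynein intermediate chain, was the shortest of these genes at 3923 bp of exon and the densest at 1.27 peaks per kb. ACACA, the acetyl-CoA carboxylase of fatty acid synthesis, had 4 coding peaks of up to 474.75, and ARHGEF11 had peaks in the 5′UTR (97.84), beside the start codon (326.7) and in the CDS (74.82 to 240.29).

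**Figure D2:**
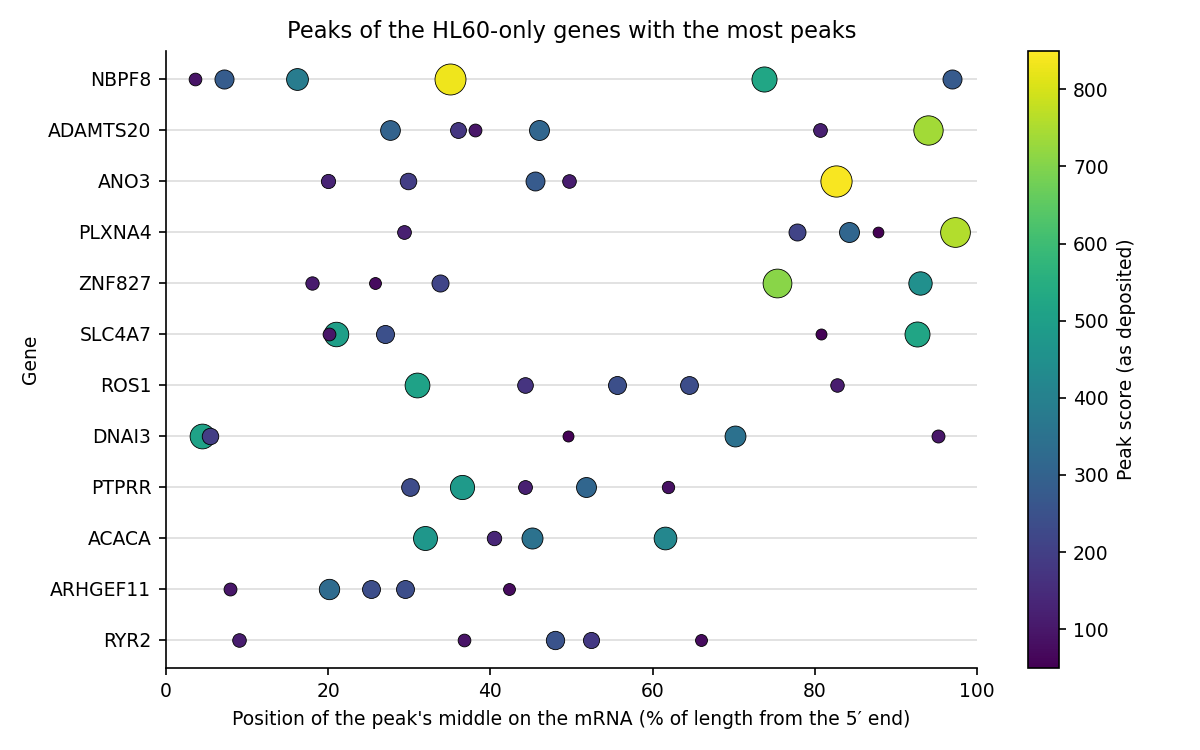
Peaks of the 12 HL60-only genes with the most peaks, placed by the middle of the peak along the longest coding transcript (x axis, percent of mRNA length from the 5′ end), with size and colour giving the deposited score; 1 of the 62 peaks, in ACACA, lies off that transcript and is not drawn. In PLXNA4 4 of 5 peaks lie at or past 77.8% of the mRNA, and in RYR2 the 5 peaks run from 9.04% to 66.0%.

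Scores of the members, on the scale the authors deposited, had a median of 192.48 with quartiles of 108.54 and 329.41, against a median of 199.46 for the other assigned HL-60 peaks. By quartile of score over the assigned HL-60 peaks, members made up 49.6%, 49.8%, 49.6% and 47.1% from the lowest to the highest. The highest quartile held a slightly lower share than the rest, and its interval (44.9 to 49.4%) overlapped that of each other quartile. Low scores were common, since 823 members (21.7%) scored under 100, and 51 (1.34%) reached 1000 against 79 of the 3943 HL-60 peaks in shared genes. Exact score values recurred across unrelated genes: 1725 members (45.4%) had a score held by at least 10 members, and the value 101.45 alone stood for 43 peaks in 43 genes, of 2 to 327 bp. Scores rank such peaks only coarsely.

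The peak in ANTXRL scored 3177.45 and that in SMYD3, a lysine methyltransferase, 3177.35, followed by GAGE12G with 3057.6 and the sorting nexin SNX32 with 2322.62. DPYSL4 scored 1906.16 and MYOM3, a myomesin of the muscle M-band, 1738.74. SHQ1, an assembly factor of H/ACA ribonucleoproteins, reached 1540.37 and the olfactory receptor OR51E1 1537.73 in its 3′UTR. Multi-copy genes supplied 5 of these 12 peaks. The deubiquitinase genes USP17L19 (1802.71) and USP17L12 (1683.5), the cyclophilin-like PPIAL4A (1612.67), GOLGA6C (1535.7) and GAGE12G had exact copies of the 32 bases at the middle of the peak at 22, 25, 6, 1 and 10 other places. For GAGE12G a copy lay inside an HL60/MX2 peak. The gene named for such peaks is uncertain, and the 24-bp peak of SNX32 was too short to search.

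Over the 3391 members long enough to search, 239 (7.05%, 6.21 to 7.96%) had such a copy elsewhere in the genome, close to the 6.45% of HL-60 peaks in shared genes and the 6.74% of peaks in HL60/MX2-only genes. Among peaks scoring at least 1000 it was 9 of 47 members (19.1%, 9.15 to 33.3%), 17 of 73 HL-60 peaks in shared genes (23.3%) and 25 of 222 peaks in HL60/MX2-only genes (11.3%). In 27 of the 239 a copy fell inside an HL60/MX2 peak. These 27 included 3 GAGE12 genes (GAGE12G, GAGE12I with 134.35 and GAGE12J with 389.92), the PRAME family genes PRAMEF4 and PRAMEF11, the amylase genes AMY1B (1163.71) and AMY2A (428.58), and the protocadherin PCDHB13 (255.4). For these genes the absence of an HL60/MX2 peak cannot be told apart from the placing of reads on another copy. Others of the 27 had middle bases that recurred at very many places, such as DACT3 (86276 other places) and ZNF684 (43345). There a copy inside some HL60/MX2 peak says little of the gene.

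Near the edge of the rule, the 5 HL60-only genes with the lowest top score were ECT2L at 50.21, AGRP at 50.25, LZTFL1 at 50.92, PREPL at 50.92 and PFKFB4 at 50.94. Just outside it were 5 genes kept out by a weak HL60/MX2 peak, DUSP4 at 50.03, FANCD2 at 50.1, DGKH at 50.34, SLCO5A1 at 50.53 and ATP5F1A at 51.54. Their HL-60 scores were 95.32, 114.11, 210.97, 186.02 and 54.7. The lists start at a score of about 50, and 509 HL60-only genes, 482 of them with 1 peak, had no HL-60 score of 100 or more. Another 268 genes counted in both lists had no HL60/MX2 score of 100 or more.

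Of the 3796 members, 3209 lay on the longest coding transcript of their gene and could be placed on it. Coding sequence more than 100 nt away from the start and stop codons held 59.1% (57.3 to 60.8%) of them, against 69.1% (67.5 to 70.7%) of HL-60 peaks in shared genes. The 3′UTR held 22.2%, the stop codon region 5.61%, the start codon region 8.76% and the 5′UTR 4.39%. Taken with their transcripts' make-up, members lay 1.30 times as often in the CDS and 0.520 times as often in the 3′UTR as these regions' length alone would place them, and 2.12 times as often around the start codon. The start codon region was thus the most enriched for its length and the 3′UTR the least. For the CDS this ratio was 1.15 in HL-60 peaks of shared genes and 1.18 in peaks of HL60/MX2-only genes, both below that of members. Members' transcripts held less CDS, 45.3% of their length against 60.4% in shared genes, so their lower CDS share is not a lower share for its length.

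The 5′ end, counted as 5′UTR plus start codon region, held 13.2% of members (12 to 14.4%), 7.71% of HL-60 peaks in shared genes (6.83 to 8.66%) and 23% of peaks in HL60/MX2-only genes (21.6 to 24.4%). Relative to region length these were 1.72, 1.64 and 2.82 times. By class of exon length, the 5′ end held 19.7% of members and 11.1% of HL-60 peaks in shared genes in genes of at most 4469 bp, 11.7% and 8.81% in the middle class, and 5.61% and 6.06% in genes of at least 8099 bp. By class of exon GC content, members and peaks of HL60/MX2-only genes had 11.8% and 22.3% at the 5′ end where GC was lowest, 13.1% and 22.7% in the class between, and 15.7% and 23.9% where it was highest. The peaks themselves differed in GC content within these classes, since 5′-end peaks in genes of the lowest GC class averaged 47.8% in members and 56.7% in HL60/MX2-only genes. Over all classes these means were 51.5% and 60.8%. The part of gene length and base composition in the 5′-end shares was not tested.

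**Figure D3:**
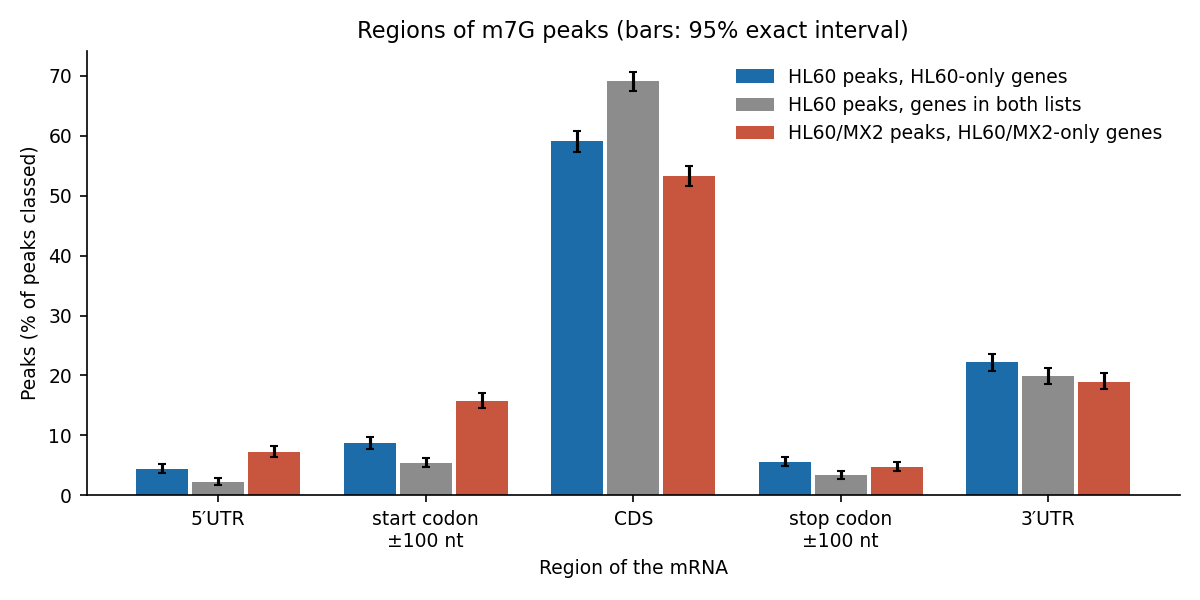
Share of peaks (y axis, percent of the peaks that could be placed) in each region of the mRNA for HL-60 peaks in HL60-only genes, HL-60 peaks in genes of both lists and HL60/MX2 peaks in HL60/MX2-only genes, with exact binomial 95% intervals. HL60-only genes stand between the other 2 groups in the CDS (59.1% against 69.1% and 53.2%) and around the start codon (8.76% against 5.43% and 15.8%). Shares are not scaled to region length, and for its length the CDS ratio was highest in HL60-only genes (1.30 against 1.15 and 1.18).

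Along the mRNA the members thinned out from the 5′ to the 3′ end. With each mRNA cut into 10 equal parts, the first part held 15.2% of them and the ninth 6.20%, with 8.13% in the last. Internal exons carried 57.2% (55.5 to 59.0%) of placed members, last exons 30.6%, first exons 8.29% and single exons 3.83%, against 69.1% in internal exons for HL-60 peaks in shared genes. Member peaks had a median length of 131 bp, 2628 (69.2%) had an edge on an exon edge, and 1056 (27.8%) covered a whole exon. In these features they resembled the 126 bp, 71.8% and 31.4% of HL-60 peaks in shared genes, with intervals that did not overlap for whole exons (26.4 to 29.3% against 30 to 32.9%). Peaks in the 3′UTR were longer, with a median of 247 bp against 98 bp in the CDS, and had a mean GC content of 40.0% against 47.8%. At the short end, 262 members (6.90%) spanned 20 bp or less. The longest member, 1502 bp in the 3′UTR of the kainate receptor gene GRIK4, scored 1043.94. It was followed by ZNF518B (1389 bp), the early growth response factor EGR3 (1239 bp), GMFB (1163 bp) and the RNA helicase DDX60 (1096 bp).

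By chromosome, the HL60-only share of genes peaked in 1 list was highest on chromosome 18, with 63 HL60-only against 38 HL60/MX2-only genes (62.4%, 52.2 to 71.8%). It was lowest on chromosome 16 (66 against 138, 32.4%, 26 to 39.2%) and chromosome 22 (44 against 84, 34.4%), followed by chromosomes 9 (38.3%) and 19 (38.5%). Chromosomes 16, 19 and 22 also had the highest mean exon GC content, of 54.7%, 56.0% and 55.8%, and chromosome 18 had one of the lowest at 44.7%. Chromosomes 4 and 13, at 44.1% and 44.4% GC, had shares of 51.6% and 48.6%, lower than chromosome 18 but with overlapping intervals. The part of base composition in the order of the chromosomes was not tested.

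**Figure D4:**
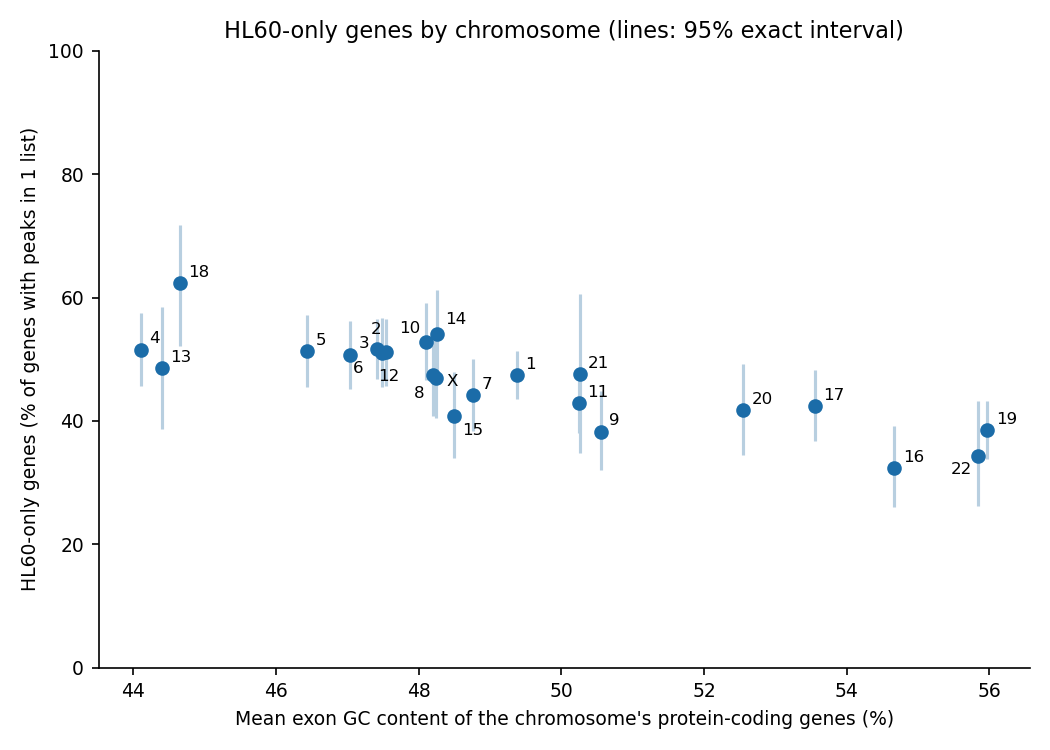
HL60-only genes as a percent of genes with peaks in 1 list (y axis) against the mean exon GC content of each chromosome's protein-coding genes (x axis, percent), for 23 chromosomes with exact binomial 95% intervals; the numbers beside the points are chromosome names. Chromosome 18 stands highest at 62.4%, and chromosomes 16 and 22 lowest at 32.4% and 34.4%.

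Of 312 windows of 10 Mb with genes, 125 held more HL60-only than HL60/MX2-only genes, 157 fewer and 30 equal numbers. The window with the largest surplus was at 40 to 50 Mb of chromosome 18, with 15 against 4 genes, among them SETBP1 (highest score 1119.86), a leukaemia gene, RIT2 (810.94), a small GTPase, ZBTB7C (805.63) and ACAA2 (451.87), a thiolase of fatty acid oxidation. At 80 to 90 Mb of chromosome 7 it was 11 against 1, with SEMA3D (438.33), the carnitine transferase CROT (315.94), CACNA2D1 (255.4, 3 peaks), DBF4 (194.21), which activates the replication kinase CDC7, and the growth factor HGF (169.34, 3 peaks). At 110 to 120 Mb of chromosome 10 it was 15 against 5. The highest scores there were in GPAM (1165.96, 4 peaks), TECTB (645.75), RBM20 (587.66, 4 peaks), PNLIPRP3 (519.81), ACSL5 (429.42) and FHIP2A (307.88). GPAM acts in lipid synthesis and ACSL5 in fatty acid activation. Windows were ordered by this same surplus, so these counts are descriptions. Copy number of these regions in the lines was not measured here.

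Function was described with 39 gene lists that hold 3567 genes, of which 546 (15.3%) were HL60-only, near the 14.4% of all genes. Some lists with a high HL60-only share, such as collagens and neuron markers, also had a high share of genes in both lists, and both counts are given. Integrins, the adhesion receptors of cells for matrix, were HL60-only in 11 of 30 genes (36.7%, 19.9 to 56.1%), in both lists in 5 and HL60/MX2-only in 6. Their scores were moderate, from ITGB4 at 377.04 and ITGB8 at 360.18 down to ITGAD at 65.03, and ITGA1 had 3 peaks. Collagens were HL60-only in 14 of 44 genes (31.8%, 18.6 to 47.6%), in both lists in 18 and HL60/MX2-only in 7. The highest scores were in COL25A1 (1094.11), COL19A1 (547.73, 4 peaks) and the basement membrane chain COL4A6 (539.71). In COL19A1 that score came from a peak of 1 bp, and its other peaks scored 74.82 to 95.89. Cadherins and protocadherins gave 21 of 98 (21.4%, 13.8 to 30.9%), including FAT2 with 4 peaks of 55.64 to 597.39, CDH26 with 3 of up to 530.25 and CDH12 with 3 of up to 511.48. Of those 98 genes 22 were in both lists and 10 HL60/MX2-only.

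Voltage-gated and potassium channel genes were HL60-only in 31 of 118 (26.3%, 18.6 to 35.2%), in both lists in 25 and HL60/MX2-only in 19. The testis potassium channel KCNU1 had the highest score, 1096.98, followed by KCNV1 (616.96) and the L-type calcium channel subunit CACNA1C (558.76). Genes named as neuron markers were HL60-only in 9 of 30 (interval 14.7 to 49.4%) and in both lists in another 9, with SYN2 (865.8), GRIN1 (558.76) and GRIA3 (420.55). Striated muscle markers gave 7 of 30, beside 8 in both lists, among them MYL2 (636.71), MYH2 (456.32) and RYR2, whose peaks are given above. These lists hold long genes: the median exon length was 6138 bp for channels and 9677 bp for neuron markers. It was 6952.5 bp for integrins, 9049 bp for collagens and 6393 bp for genes of the cilium and centrosome. The part of exon length in the shares of all these lists was not tested. Peak calls say nothing on their own of how much of these transcripts the cells held, and the input libraries were not analysed here.

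Genes of the cilium and centrosome were HL60-only in 40 of 171 (23.4%, 17.3 to 30.5%), in both lists in another 40 and HL60/MX2-only in 30. The list was drawn by symbol and also holds SPAG11A and SPAG11B, whose place in cilia is not shown here. The study named cilium and axoneme terms from these same samples, so this list is no independent evidence. CFAP74 scored 1427.28 beside its start codon, from a peak of 20 bp. TTC21A scored 1015.88 and TCTN2 954.45, the last of these a protein of the ciliary transition zone. CFAP43, of the sperm flagellum, had 4 peaks of up to 360.03. Genes of DNA repair and topoisomerases were HL60-only in 21 of 103 (20.4%, 13.1 to 29.5%), in both lists in 14 and HL60/MX2-only in 14. The translesion polymerase POLI had the highest score, 880.99, from a peak of 7 bp. RAD51B (438.33) and BARD1 (310.4) serve homologous recombination, NEIL2 (360.03) and MUTYH (351.57) base excision repair, and MLH3 (255.4) mismatch repair. All but POLI and CHEK2 of these 21 genes rested on 1 peak. Ubiquitin-specific proteases gave 16 of 78 genes (20.5%), where the highest scores came from the multi-copy USP17L genes and USP18, which acts on the interferon-induced modifier ISG15, scored 307.56.

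Over all genes HL60/MX2-only genes (16.5%) outnumbered HL60-only ones (14.4%), and in some lists the gap was wider. RAB GTPases, regulators of vesicle traffic, were HL60-only in 5 of 62 and HL60/MX2-only in 16. Genes of mitosis and the spindle checkpoint were so in 5 and 14 of 64, with SPAG5 (564.14) and BUB1B (379.89, from a peak of 16 bp) among the 5. Chromatin modifiers and remodelers were HL60-only in 18 of 118 (15.3%) and HL60/MX2-only in 34, with BPTF (676.69), NSD2 (546.31) and ASH2L (443.73) at the top of the 18 and EZH2, the methyltransferase of histone H3, at 131.72. The lowest HL60-only shares were 1 of 67 replication-dependent histone genes (H2BC15, 302.35), 2 of 87 cytosolic ribosomal protein genes (RPS24 and RPS3) and 2 of 32 housekeeping genes. These lists were as low in HL60/MX2-only genes, with 1, 1 and 2, and 65, 83 and 28 of their genes had no peak in either list. The median exon length of the histone genes was 511 bp, and its part was not tested. Olfactory receptor genes were HL60-only in 50 of 414 (12.1%), HL60/MX2-only in 28 and in both lists in 9, led by OR51E1, OR1J2 and OR10K1 (798.16).

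Kinesin and dynein, ABC transporter, branched-chain amino acid degradation and amino acid biosynthesis genes are also groups that the study drew from these same samples, so they are no independent evidence. Kinesins and dyneins were HL60-only in 12 of 82 genes (14.6%), in both lists in 28 (34.1%) and HL60/MX2-only in 16. The mitotic motors KIF2B (864.22) and KIF23 (801.24) were highest among the 12. Over all genes 12% were in both lists. ABC transporters were in both lists in 14 of 48 (29.2%), HL60/MX2-only in 7 and HL60-only in 7. The 7 included ABCB1, which encodes the drug efflux pump P-glycoprotein, with 3 coding peaks of 85.12, 101.45 and 107.12, the related pump ABCC5 (462.22), ABCC12 (800.39) and the peptide transporter TAP2 (164.14). Branched-chain amino acid degradation gave 8 of 46, beside 7 in both lists and 11 HL60/MX2-only. Among the 8, ACADSB, the dehydrogenase of short branched chains, had 4 peaks of 192.74 to 329.39. Amino acid biosynthesis gave 5 of 43, beside 2 in both lists and 6 HL60/MX2-only, with the serine synthesis enzyme PHGDH highest at 705.53 in its 5′UTR. None of these 4 lists stood above the share over all genes by more than its interval.

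**Figure D5:**
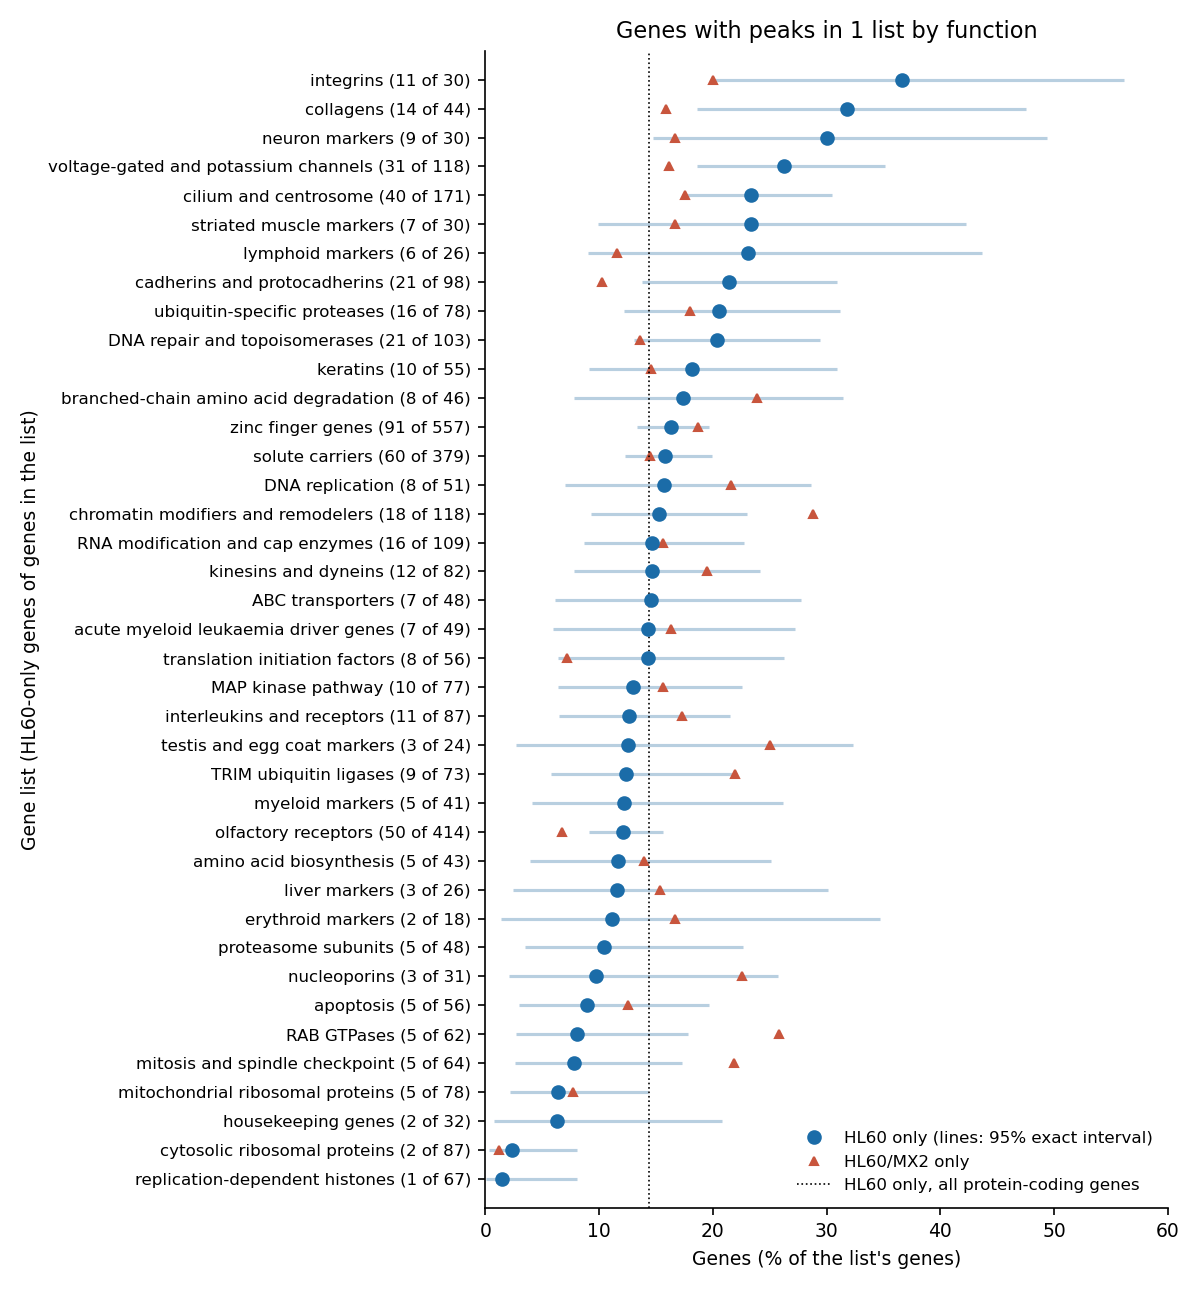
HL60-only genes as a percent of each of 39 gene lists (x axis), with exact binomial 95% intervals, beside the HL60/MX2-only percent (triangles) and the 14.4% of all protein-coding genes (dotted line). Integrins (11 of 30), collagens (14 of 44), neuron markers (9 of 30), channels (31 of 118) and cilium and centrosome genes (40 of 171) have intervals wholly above the line, and cytosolic (2 of 87) and mitochondrial (5 of 78) ribosomal protein genes and histone genes (1 of 67) wholly below it. With 39 intervals set against 1 line, some can miss it by counting error alone, and that of neuron markers starts at 14.7%.

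Genes of leukaemia and of the myeloid lineage had shares close to that of all genes. Driver genes of acute myeloid leukaemia were HL60-only in 7 of 49 (14.3%), namely SETBP1, MYH11 (804.53), the transcription factor RUNX1 (351.61), CUX1 (189.81), the receptor KIT (189.79), KDM6A (181.09) and EZH2. Myeloid markers, which should mark these cells, were HL60-only in 5 of 41, HL60/MX2-only in 5 and in both lists in 0. The other 31 had no peak in either list. The 5 HL60-only ones were CSF2RA (537.11) and the granulocyte granule genes CTSG (728.97, beside the start codon), RNASE3 (270.78), CAMP (191.03) and DEFA4 (90.44). Lymphoid markers were HL60-only in 6 of 26, such as PAX5 (646.64) and CD3E (577.98), and erythroid markers in 2 of 18, with HBB at 565.93 and 312.97 and HBD at 169.34. Peaks were thus listed in genes of other lineages as in those of myeloid cells. In the MAP kinase pathway 10 of 77 genes were HL60-only, with BRAF (881.27 and 122.2) highest.

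Among RNA modification and cap enzymes 16 of 109 genes (14.7%) were HL60-only. WDR4, the partner of METTL1, had 1 coding peak of 54 bp with a score of 69.55 at chr21:44296824-44296877, and METTL1 had no peak in either list. CDKAL1, a transfer RNA methylthiotransferase, had the highest score of the group (871.69, in its 5′UTR), followed by the RNA-binding protein IGF2BP2 (328.39). The RNA cytosine methyltransferase NSUN2 scored 154.74, and IGF2BP1, of the same family as IGF2BP2, 151.52. WDR4 thus lay near the bottom of the score range, which starts at about 50.

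The study named 15 genes as the strongest rises and 15 as the strongest falls of m7G in HL60/MX2, chosen on these same samples. Of the falls, 6 were HL60-only: the microRNA processing nuclease DROSHA with 3 coding peaks of 254.85, 324.92 and 555.82, the transcription factor TCF4 with 4 peaks of 107.12 to 1177.55, GIMAP4 (896.6), SPAG11B (832.06 and 162.7), SPAG5 (564.14) and HERC4 (101.1 and 74.42). Of the rises, 4 were HL60-only by the peak lists: CACNA1C (558.76 and 203.83), FAM221B (302.35), EPB41L4B (116.93) and EPPIN (101.45). Of the falls 2 were HL60/MX2-only, and of the rises 3. HL60-only genes thus occurred on both sides of the study's selection, beside 14.4% of all genes. The study called single sites, however, while a class here covers the whole gene. The HL-60 peaks of the 4 rises did not overlap the sites that the study listed in those genes. That of FAM221B, at chr9:35825854-35826055, lay directly beside the listed site. Of the 6 falls, all but TCF4 had an HL-60 peak over the listed site.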

How the data were processed

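The data are m7G MeRIP-seq of HL-60 and HL60/MX2, 1 enriched and 1 input library per line. Per the study's methods and the submitters' processing notes, the authors trimmed reads with Cutadapt 1.9.3, aligned them to hg19 with Hisat2 2.0.4, called peaks with MACS and kept peaks in exons of mRNA. The MACS version and settings are not given in the sources used here. Each deposited list has 6 columns, and the only measurement is a peak score, deposited by the authors on a scale that is not stated. The lowest member scored 50.18, and read depth is unknown, so no count behind a peak could be given. Input libraries were not analysed here.

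Peaks were assigned to 20162 protein-coding genes of GENCODE 44 (hg19) by the largest exon overlap on the listed strand, of at least 1 bp, with ties going to named genes. Starts were turned to count from 1. Regions were set on the transcript with the longest coding sequence, where the 100 nt before and after either codon formed extra classes. Exon length and GC content were taken over merged exons. The 32 bases at the middle of each peak were searched for exact copies on both strands of hg19, a step added after seeing the data. Assignment and region steps were tested on simulated peaks. Intervals are exact Clopper-Pearson 95% intervals (scipy 1.17.1, numpy 2.4.6, Python 3.11.15, matplotlib 3.10.9 for the figures).

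Members, gene lists and the rules below were chosen with earlier results of these data known. Named were the 12 HL60-only genes with the most peaks, those of the 12 highest scores, the 5 longest peaks, up to 6 genes by score per list, genes of the study's own tables, METTL1 and WDR4, 5 genes on each side of the edge of the rule, and up to 6 by score in each of the 3 windows of largest surplus. Genes outside these rules (CHEK2, ITGAD, CFAP43, EZH2 and the genes with copies inside HL60/MX2 peaks) were chosen after their values were seen. No test between lines, block or left-out library was possible with 1 library each.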

Additional observations from a re-analysis of the deposited data

How the results depend on the processing

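No paired analysis was possible because each line had 1 enriched library, and for the same reason no library could be left out. Of 80 values under other settings, which include 2 overlaps fixed by the choice of members, 68 stayed within 1.5 times the reported count or within the 95% interval of the reported value, and none changed direction, since none is a difference. The settings were a score of at least 100, a score at or above the list's median, every overlapped gene, at least 50% of the peak in exons, exons of the longest coding transcript, strand ignored, and, chosen after seeing the data, no peaks with copies and HL60/MX2 peaks of at least 100 only. The number of HL60-only genes ran from 2152 to 3167. With a score of at least 100 in both lists, the mean peaks per gene was 1.26, the median exon length 5411.5 bp and the median score 246.6. At or above each list's median, these were 1.19, 5659 bp and 331.6, and the CDS share was 60.8%. With the longest coding transcript only, the mean peaks per gene was 1.28. With HL60/MX2 peaks under 100 dropped, the median exon length was 5391 bp. Without separate classes at the codons, the CDS held 67.0%, the 3′UTR 24.6% and the 5′ end, then the 5′UTR alone, 8.38%, because the codon classes were divided among their neighbours. The overlap of members with HL60/MX2 peaks is held near 0 by how members were chosen, so its 2 alternatives, also 0, say nothing of stability. Depth is unknown for both libraries, so how far it limits the lists could not be given.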

Other observations

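The counts in this section stand beside 14.4% HL60-only and 16.5% HL60/MX2-only over all genes. Interleukin and interleukin receptor genes were HL60-only in 11 of 87 genes and HL60/MX2-only in 15. IL31RA had peaks of 1119.55 in its 3′UTR and 435.83, and IL7R, a lymphoid cytokine receptor, had 424.94 beside its start codon and 51.35 in the 3′UTR. IL1A (310.4) and IL1B (270.78), the founding cytokines of the inflammatory interleukin family, each had 1 peak. Zinc finger genes, the largest list, were HL60-only in 91 of 557 (16.3%, 13.4 to 19.7%), and 27 of their 120 peaks were at the 5′ end, led by ZNF585B (929.28) and ZNF610 (853.49) in the 5′UTR. Solute carriers were HL60-only in 60 of 379 (15.8%), with SLC4A10 (1072.86, 3 peaks) and SLCO4C1 (871.71, over 1029 bp of 3′UTR) highest. TRIM ubiquitin ligases gave 9 of 73 against 16 HL60/MX2-only, and TRIM2 had 4 peaks of 55.77 to 269.07. Keratins gave 10 of 55, led by KRT1 (1166.44) and KRT6C (474.51).

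Translation and protein turnover lists were small in number. Genes with initiation factor symbols were HL60-only in 8 of 56 (14.3%, HL60/MX2-only in 4), with the highest score 244.31 in EIF5A2. The list was drawn by symbol, and the 8 include the kinase genes EIF2AK1, EIF2AK2 and EIF2AK3 and the gene EIF4ENIF1, which are not themselves initiation factors. Mitochondrial ribosomal proteins were HL60-only in 5 of 78. Proteasome subunits gave 5 of 48, led by the testis subunit PSMA8 (558.76). DNA replication genes gave 8 of 51 against 11, with CDC7 (506.46) highest and its activator DBF4 (194.21) also HL60-only. Apoptosis genes gave 5 of 56 against 7, led by CASP10 (648.82 and 486.88), an initiator caspase, and nucleoporins 3 of 31 against 7, led by AHCTF1 (334.76). Liver markers gave 3 of 26 and testis and egg coat markers 3 of 24. These are values of 1 library per line.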
